A study of Ovis aries with 9 samples.

Results

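The genes described here encode the enzymes of mitochondrial and peroxisomal fatty acid oxidation, together with the proteins that bind fatty acids or activate them for these pathways. They were chosen by gene symbol from a list of 37 names, of which 35 had a row among the 28837 named genes of the count table. ACOT2 and SCP2 had no row and are not analysed here. Of the 35 members, 16 were counted as mitochondrial, 13 as peroxisomal and 6 as binding or activating fatty acids. The cells were liver hepatocytes of ewes (Ovis aries), isolated with collagenase and picked by hand, and each went through Smart-seq3xpress, which turns the RNA of a single cell in a well into a library of its own. The groups were lactation (days 7 and 15 after birth), gestation (days 40 to 50, 50 to 70, 70 to 80, 90 to 100, 100 to 120 and 140 to 150) and a virgin sample, with 1 sample per stage. The animals were slaughtered sheep with no treatment or allele named, and the labels do not say how many animals stand behind a stage. The stages of a phase therefore serve as its replicates, and p-values reflect the spread among these samples, in which differences between stages and between ewes cannot be told apart.

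Fatty acids reach beta-oxidation as acyl-CoA esters. In mitochondria a repeating cycle of dehydrogenation, hydration, a second dehydrogenation and thiolysis shortens the chain and releases acetyl-CoA, which the liver can burn in the citric acid cycle or turn into ketone bodies, a major fuel of ruminants in late pregnancy and early lactation. Peroxisomes shorten very long chains, the side chain of bile acid precursors and branched chains, and they break down phytanic acid, which ruminants obtain from the phytol of chlorophyll, by alpha-oxidation.

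The 9 samples held 3404 cells, from 246 cells on day 7 of lactation to 553 cells on day 15, and 0 pairs of cells had identical counts. Reads on named genes ran from 114865665 on day 7 of lactation to 272944124 on day 15. Levels are given in CPM, counts per 1000000 of a sample's total after TMM scaling (edgeR's correction of library totals), so they are relative levels, and less RNA of a gene per cell cannot be told apart from more RNA of other genes. The hepatocyte markers, 11 of 13 listed being in the table, summed to 81212 and 110272 CPM in the lactation stages, to between 159837 and 214698 CPM in the gestation stages and to 179262 CPM in the virgin sample, and every marker had reads in every stage. Marker sums of other cells were small, with ranges over the 9 stages of 0.513 to 3.02 CPM for cholangiocytes, 5.03 to 14.2 CPM for endothelium, 2.88 to 25.3 CPM for stellate cells, 4.89 to 41.6 CPM for macrophages, 2.72 to 36.8 CPM for lymphocytes, 0.47 to 12.5 CPM for neutrophils and 0.41 to 224 CPM for red cells. The highest sums of red cell, lymphocyte, macrophage and neutrophil markers were all those of day 7 of lactation, and their part in the results was not tested.

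The sums of both compartments were lowest in the virgin sample. The mitochondrial members summed to 3829 CPM in the virgin sample, to 5841, 5198, 5657, 6008, 5664 and 6118 CPM over the 6 gestation stages in order of days, and to 4734 and 5513 CPM on days 7 and 15 of lactation. All 6 gestation stages and both lactation stages lay above the virgin sample. The peroxisomal members summed to 4438 CPM in the virgin sample, to 9282, 7333, 8790, 7620, 8008 and 8175 CPM over gestation, and to 6695 and 6813 CPM in lactation. Here the lactation stages lay between the virgin sample and the lowest gestation stage. That separation from gestation ended when scaled by library size alone, with 7276 and 7533 CPM in lactation and 6961 to 9209 CPM in gestation. Counting error on these sums was small, with a 95% exact Poisson interval of 3821 to 3836 CPM for the mitochondrial sum of the virgin sample, and covers counting error only.

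By phase, the mitochondrial sum was 5748 ± 326 CPM in gestation (SD, n = 6) against 3829 CPM in the virgin sample, a ratio of 1.5. The peroxisomal sum was 8201 ± 727 CPM in gestation against 4438 CPM in the virgin sample, a ratio of 1.85. In lactation the mitochondrial sum was 5123 ± 551 CPM (SD, n = 2), 0.891 times the gestation mean, a log2 ratio of -0.17. Scaled by library size alone that log2 ratio was 0.02, while the median log2 fold change of all genes moved from -0.01 to 0.18. The peroxisomal sum in lactation was 6754 ± 83.6 CPM, 0.824 times the gestation mean, with a log2 ratio of -0.28 that was -0.09 when scaled by library size alone. The 18 citric acid cycle genes, which take up the acetyl-CoA that the cycle releases, summed to 2141 ± 339 CPM in lactation, 2523 ± 179 CPM in gestation and 2159 CPM in the virgin sample.

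**Figure D1:**
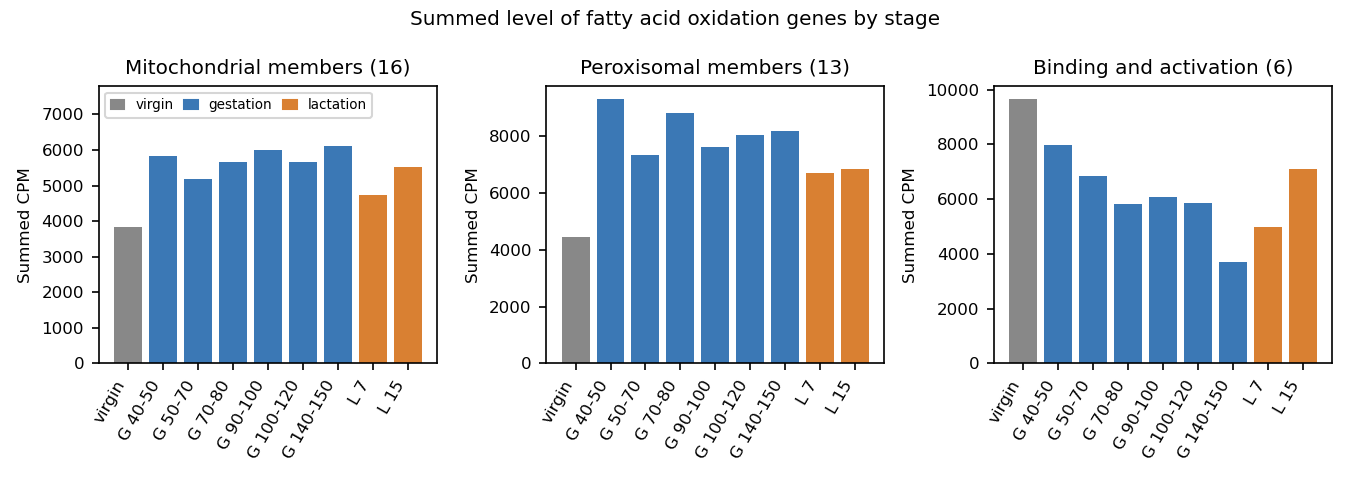
Summed CPM of the 16 mitochondrial, 13 peroxisomal and 6 binding and activation members in each of the 9 stages (1 sample a bar, G for gestation days and L for lactation day, colours for the phase). The mitochondrial and peroxisomal sums are lowest in the virgin sample, at 3829 and 4438 CPM, where the binding and activation sum is highest, at 9646 CPM.

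Among single members the same order was common but not general. Of the 28 mitochondrial and peroxisomal members with a mean of at least 5 CPM, 17 had their lowest of 9 levels in the virgin sample, against 12.6% of the 8282 genes at that level. They were 8 of 16 mitochondrial members and 9 of 12 peroxisomal members, and 0 of 5 of the binding and activation members did so. The exceptions had their lowest level elsewhere, ACAD11 at days 40 to 50, HADHA and HADHB at days 50 to 70, DECR2 at days 100 to 120, and ACADM, DECR1, ETFA, ETFB and HSD17B4 on day 7 of lactation. HADH and ACAA1 were lowest on day 15 of lactation.

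**Figure D2:**
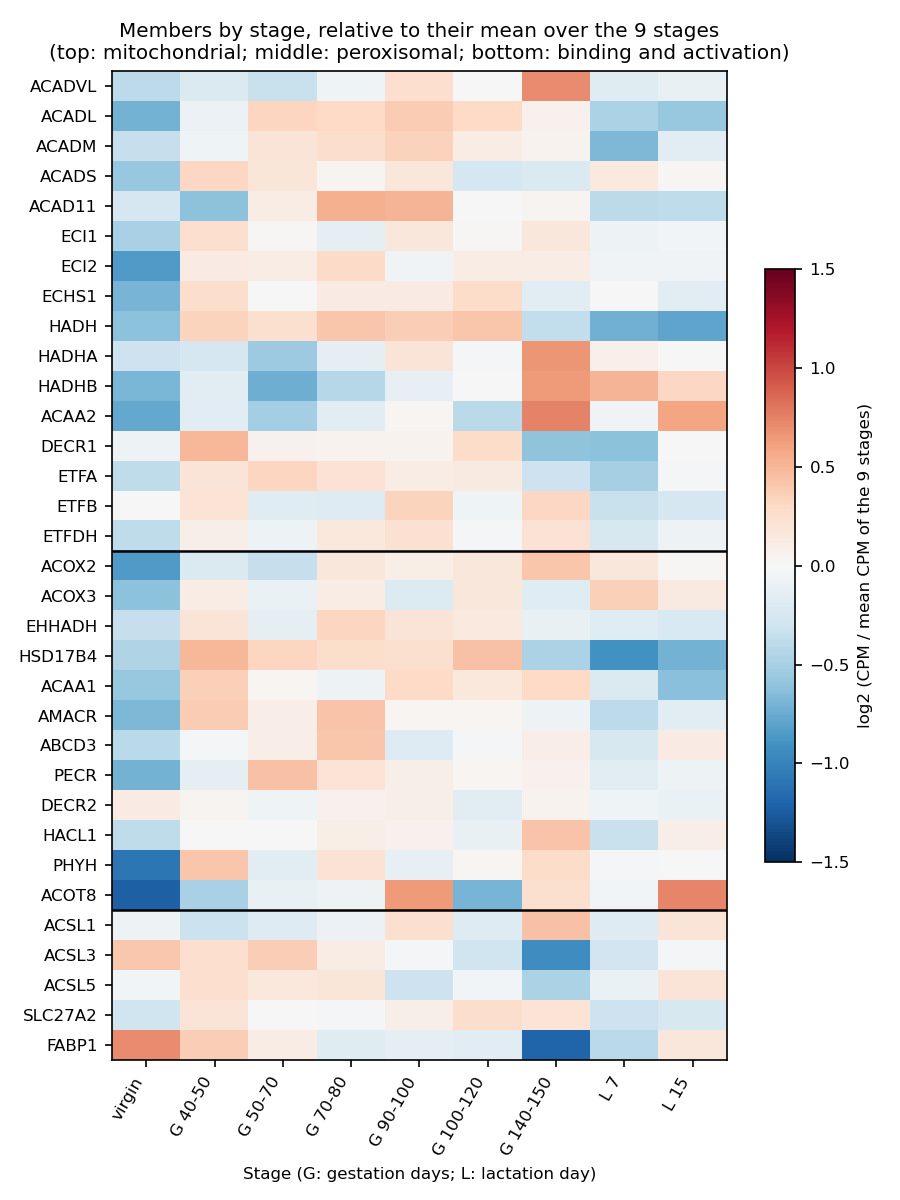
Level of each of the 33 members with a mean of at least 5 CPM in each stage, as log2 of its CPM over its own mean CPM of the 9 stages (red above, blue below; black lines part the 3 groups of members). The virgin column is mostly blue for the upper groups and red for FABP1 and ACSL3, and the column of gestation days 140-150 stands apart from its neighbours in both directions.

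The mitochondrial cycle opens with acyl-CoA dehydrogenases that differ in the chain length they take. ACADVL, the dehydrogenase of very long chains, stood at 185 CPM in the virgin sample, at 209, 192, 232, 288, 241 and 398 CPM over gestation and at 213 and 225 CPM on days 7 and 15 of lactation. ACADL, for long chains, stood at 147 CPM in the virgin sample, at 227, 300, 296, 313, 296 and 252 CPM over gestation and at 173 and 163 CPM in lactation. For ACADL the 3 phases did not overlap, with gestation highest and the virgin sample lowest. ACADM, for medium chains, had 324 CPM in the virgin sample, 396, 473, 496, 525, 444 and 428 CPM over gestation and 259 and 369 CPM in lactation, so that each gestation stage was above all 3 other samples, though not when scaled by library size alone (at most 408 CPM in lactation, at least 369 CPM in gestation). ACADS, for short chains, had its highest level at days 40 to 50 (140 CPM) and its lowest in the virgin sample (76 CPM). ACAD11, a further enzyme of the family that was counted here as mitochondrial, was highest at days 70 to 80 (171 CPM) and lowest at days 40 to 50 (77.2 CPM).

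Hydration and the shift of double bonds in unsaturated chains follow. ECHS1, the hydratase of short chains and the member with the largest share of the mitochondrial sum (16.2% to 23.9%), had 689 CPM in the virgin sample, 1335, 1115, 1210, 1209, 1353 and 993 CPM over gestation and 1121 and 996 CPM in lactation. ECI2, an enoyl-CoA isomerase found in both mitochondria and peroxisomes and counted here as mitochondrial, had 167 CPM in the virgin sample, 329, 325, 369, 292, 326 and 326 CPM over gestation and 292 and 291 CPM in lactation. All lactation and gestation stages of ECI2 lay within 291 to 369 CPM, apart from the virgin sample. The other isomerase, ECI1, was highest at days 40 to 50 (248 CPM) and lowest in the virgin sample (149 CPM). DECR1, the 2,4-dienoyl-CoA reductase needed for polyunsaturated chains, had 573 CPM in the virgin sample, 854, 633, 625, 627, 730 and 396 CPM over gestation and 393 and 603 CPM in lactation, and its phases overlapped.

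The late steps of the cycle were not alike. HADH, the 3-hydroxyacyl-CoA dehydrogenase of short chains, stood at 102 CPM in the virgin sample, at 198, 185, 209, 202 and 209 CPM over the first 5 gestation stages, at 121 CPM at days 140 to 150 and at 95.1 and 90.7 CPM in lactation. Its level at days 140 to 150 was thus nearer to lactation and the virgin sample than to earlier gestation. HADHA and HADHB are the subunits of the trifunctional protein, which carries out the same late steps on long chains. HADHA had 78.5 CPM in the virgin sample, 81.7, 66.5, 87.5, 111, 95.4 and 154 CPM over gestation and 102 and 96.8 CPM in lactation. HADHB had 93.6 CPM in the virgin sample, 135, 90.6, 112, 139, 151 and 236 CPM over gestation and 216 and 187 CPM in lactation. Both subunits peaked at days 140 to 150, the stage where HADH was at its gestation low.

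ACAA2, the mitochondrial thiolase that cuts off acetyl-CoA, had 583 CPM in the virgin sample, 887, 701, 895, 1016, 753 and 1665 CPM over gestation and 958 and 1503 CPM in lactation. Day 15 of lactation and days 140 to 150 were thus its highest stages. The electron transfer flavoprotein, built of ETFA and ETFB, passes electrons from the dehydrogenases to ETFDH and on to ubiquinone. ETFA was lowest on day 7 of lactation (144 CPM) and highest at days 50 to 70 (254 CPM), and ETFB was lowest on day 7 of lactation (241 CPM) and highest at days 90 to 100 (382 CPM). ETFDH was highest at days 90 to 100 (155 CPM) and lowest in the virgin sample (102 CPM). All 9 stages of ETFDH lay within a ratio of 1.52, the narrowest range of the mitochondrial members.

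**Figure D3:**
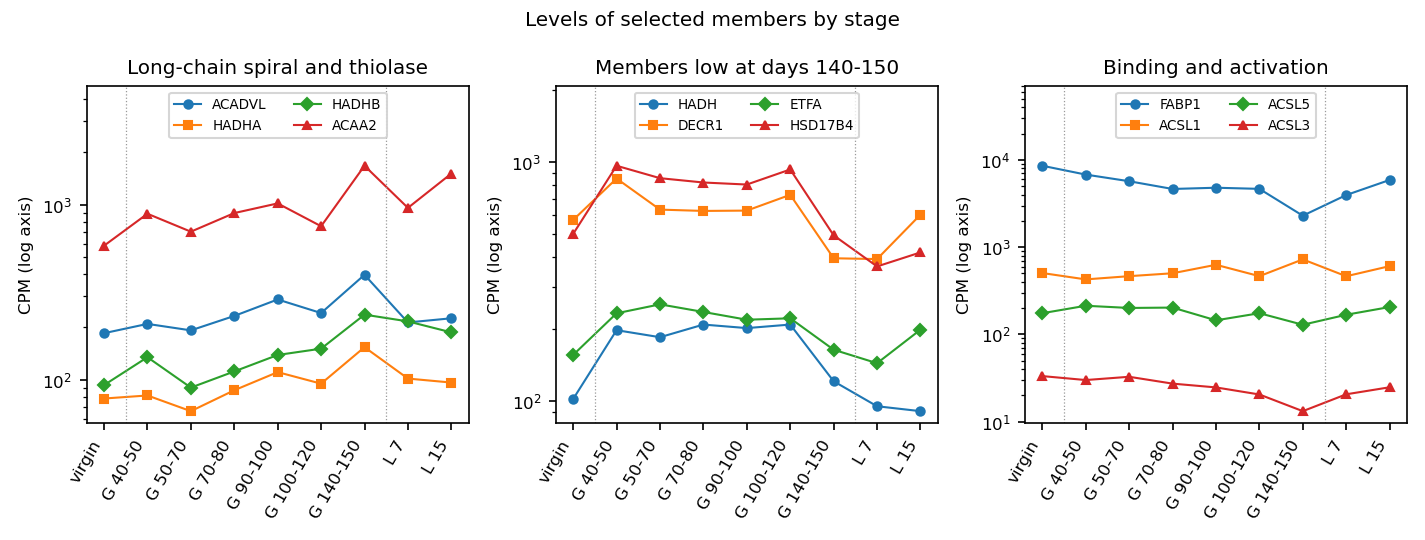
CPM of 12 members by stage on log axes (1 point per sample, dotted lines part virgin, gestation and lactation). ACADVL, HADHA, HADHB and ACAA2 peak at gestation days 140-150, the stage where HADH (121 CPM), HSD17B4 (494 CPM) and FABP1 (2292 CPM) are at their gestation lows.

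In the peroxisome, alpha-oxidation of phytanic acid is opened by PHYH, phytanoyl-CoA hydroxylase. PHYH had 1587 CPM in the virgin sample, 4473, 3009, 3902, 3075, 3440 and 4060 CPM over gestation and 3314 and 3372 CPM on days 7 and 15 of lactation. Every lactation and gestation stage lay far above the virgin sample, the lowest of them at 3009 CPM. PHYH took 40.4% to 49.7% of the peroxisomal sum in those stages and 35.8% in the virgin sample. Per kb of the table's gene length it averaged 1675 CPM, the highest of the peroxisomal members, followed by AMACR at 502 CPM per kb. Without PHYH, the log2 ratio of the peroxisomal sum of gestation over virgin was 0.67 in place of 0.89, and that of lactation over virgin 0.26 in place of 0.61. HACL1, the lyase of the next step, was highest at days 140 to 150 (184 CPM) and lowest in the virgin sample (105 CPM).

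Branched chains and bile acid precursors are then handled by AMACR, which turns the 2-methyl group into the form the oxidases accept, by the oxidases ACOX2 and ACOX3, and by the bifunctional protein HSD17B4. AMACR had 489 CPM in the virgin sample, 1011, 835, 1050, 795, 796 and 741 CPM over gestation and 594 and 700 CPM in lactation. Its 3 phases did not overlap, with lactation between gestation and the virgin sample, but scaled by library size alone lactation reached 774 CPM and gestation began at 721 CPM. ACOX2 was highest at days 140 to 150 (506 CPM) and ACOX3, a gene of low level, on day 7 of lactation (38.6 CPM), and both were lowest in the virgin sample, at 211 and 19.7 CPM. HSD17B4 had 501 CPM in the virgin sample, 966, 857, 822, 806 and 932 CPM over the first 5 gestation stages, 494 CPM at days 140 to 150 and 366 and 419 CPM in lactation. Its level at days 140 to 150 was thus apart from the earlier gestation stages, as it was for HADH.

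EHHADH, the other bifunctional protein, which serves straight and dicarboxylic chains, had 771 CPM in the virgin sample, 1124, 895, 1227, 1119, 1089 and 907 CPM over gestation and 868 and 837 CPM in lactation. Its order of phases was that of AMACR, in a narrower range, and likewise ended when scaled by library size alone (926 and 943 CPM in lactation, at least 850 CPM in gestation). ACAA1, the peroxisomal thiolase, was lowest on day 15 of lactation (326 CPM) and highest at days 40 to 50 (649 CPM). PECR, an enoyl-CoA reductase, was highest at days 50 to 70 (582 CPM) and lowest in the virgin sample (263 CPM). ABCD3, a transporter of acyl-CoA into the peroxisome, was highest at days 70 to 80 (131 CPM) and lowest in the virgin sample (74 CPM), while ABCD2, a related transporter, was at 0 reads in 7 of the 9 stages, reached at most 0.0641 CPM and was not tested.

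ACOT8, a peroxisomal thioesterase that releases free acids from acyl-CoA, was a low gene with a wide range. It had 4.94 CPM in the virgin sample, 8.25, 10.7, 11, 18, 7.11 and 13.7 CPM over gestation and 11.2 and 19.2 CPM in lactation, and a single cell gave up to 9.95% of its reads in a stage. DECR2, the peroxisomal dienoyl-CoA reductase, was the steadiest member, with 71.9 CPM in the virgin sample, 67.6, 63, 68.6, 69.8, 58.6 and 68.3 CPM over gestation and 63.2 and 61.6 CPM in lactation. It was the only one of the 12 tested peroxisomal members with its highest level in the virgin sample.

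The binding and activation members differed among themselves, and 1 of them made up most of their sum. FABP1, the liver fatty acid binding protein, had 8562 CPM in the virgin sample, 6783, 5692, 4641, 4795, 4654 and 2292 CPM over gestation and 3953 and 5886 CPM in lactation. It was highest in the virgin sample and lowest at days 140 to 150, and it held 62.1% to 88.8% of the sum of its group. Without FABP1 the log2 ratio of that sum between gestation and virgin was 0.19 in place of -0.67, so the course of that sum is mainly the course of FABP1.

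The acyl-CoA synthetases join a fatty acid to coenzyme A. ACSL1 had 505 CPM in the virgin sample, 427, 465, 502, 628, 465 and 724 CPM over gestation and 464 and 606 CPM in lactation. ACSL5 had 175 CPM in the virgin sample, 213, 201, 203, 145.2, 175 and 129 CPM over gestation and 168 and 206 CPM in lactation. ACSL1 was highest and ACSL5 lowest at days 140 to 150. ACSL3 had 33.3 CPM in the virgin sample, 30, 32.7, 27.3, 24.7, 20.5 and 13.2 CPM over gestation and 20.6 and 24.8 CPM in lactation, and ACSL4 was near the floor at 0.361 to 2.01 CPM. SLC27A2, a synthetase of very long chains that also takes part in fatty acid uptake, had 371 CPM in the virgin sample, 522, 459, 447, 486, 549 and 530 CPM over gestation and 370 and 388 CPM in lactation. Its gestation stages lay above all 3 other samples, though not when each cell had equal weight (at most 432 CPM in lactation, at least 423 CPM in gestation).

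Lactation was compared with gestation in a fit of all genes (edgeR, quasi-likelihood test, Benjamini-Hochberg adjusted). HADH, HSD17B4 and ACADL were lower in both lactation stages than in any gestation stage, but no member passed the adjusted threshold of 0.05. Of 34 members tested, 0 were called, where 0.0592% of all 20263 genes were. HADH averaged 92.9 ± 3.15 CPM in lactation (SD, n = 2) and 187 ± 33.6 CPM in gestation (SD, n = 6), which gave -1.01 on the log2 scale (SE 0.23, adjusted p = 0.16, edgeR). HSD17B4 averaged 393 ± 37.7 CPM in lactation and 813 ± 168 CPM in gestation, which gave -1.05 (SE 0.26, adjusted p = 0.212, edgeR). ACADL averaged 168 ± 6.79 CPM in lactation and 281 ± 33.4 CPM in gestation (-0.74, SE 0.18, adjusted p = 0.202, edgeR). The hepatocyte markers, of which 11 of 11 tested had negative fold changes, summed to 95742 ± 20548 CPM in lactation and 185396 ± 20029 CPM in gestation, and the 11 periportal markers to 46830 ± 10948 CPM in lactation and 108320 ± 9273 CPM in gestation. The albumin gene ALB was on both lists and gave 39.4% to 58.3% of the hepatocyte and 81.9% to 91.5% of the periportal sum. The part of the lower marker sums in the lower levels of members was not tested.

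At an unadjusted p under 0.05, edgeR had 3 of 16 mitochondrial, 2 of 12 peroxisomal and 1 of 6 binding and activation members lower in lactation and 0 higher, against 4.39% of all genes lower and 5.01% higher. DESeq2, run as an alternative, called HADH (adjusted p = 0.00248), ACADL (adjusted p = 0.00428) and HSD17B4 (adjusted p = 0.00481) as lower, where it called 2% of all genes lower. Lactation and gestation did not overlap for 5 mitochondrial (ACADL, ACADM, HADH, ETFB and ETFDH) and 4 peroxisomal members (EHHADH, HSD17B4, ACAA1 and AMACR), all of them lower in lactation, and for SLC27A2, against 4.86% of all genes lower without overlap and 6.14% higher. Scaled by library size alone, 2 mitochondrial (ACADL and HADH) and 2 peroxisomal members (HSD17B4 and ACAA1) and SLC27A2 were lower without overlap, against 2.68% of all genes, and ACOX3 was higher, against 12.7%. The log2 fold change was positive for 3 of 16 mitochondrial and 3 of 12 peroxisomal members, where 48.9% of all genes were positive. Its median was -0.25 for the mitochondrial and -0.16 for the peroxisomal members, and -0.01 for all genes. Scaled by library size alone these medians were -0.07 and 0.03, where all genes had 0.18, so the sign of the peroxisomal median turns with the scaling while HADH stayed at -0.82, HSD17B4 at -0.86 and ACADL at -0.55. HADHB (log2 fold change 0.49, SE 0.30), ACOT8 (0.41, SE 0.34), ACAA2 (0.32, SE 0.33) and ACOX3 (0.26, SE 0.16) had the largest positive values among members of at least 5 CPM, with 0 of them called.

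Gestation stood above the virgin sample for nearly all oxidation genes, with PHYH, ACOT8 and ECI2 at the largest differences, and no member passed the adjusted threshold. The virgin side was 1 sample, assumed to vary like the others. In edgeR 0 of 34 members were called, where 0.00494% of all genes were. The log2 fold change was positive for 16 of 16 mitochondrial and 11 of 12 peroxisomal members, with medians of 0.54 and 0.73, while 54.8% of all genes were positive with a median of 0.06. Scaled by library size alone the medians were 0.40 and 0.58, where that of all genes was -0.08. At an unadjusted p under 0.05, 7 mitochondrial and 7 peroxisomal members were higher and 0 were lower, against 2.3% of all genes higher and 2.15% lower. Gestation did not overlap the virgin sample for 11 mitochondrial and 10 peroxisomal members that were higher, against 12.3% of all genes higher, and for DECR2, which was lower, against 14.8% of all genes lower.

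ECI2 averaged 328 ± 24.5 CPM in gestation against 167 CPM in the virgin sample (log2 fold change 0.97, SE 0.22, adjusted p = 0.524, edgeR). PHYH averaged 3660 ± 582 CPM in gestation against 1587 CPM in the virgin sample (1.21, SE 0.33, adjusted p = 0.872, edgeR). ACOT8 averaged 11.5 ± 3.95 CPM in gestation against 4.94 CPM in the virgin sample (1.22, SE 0.51, adjusted p = 1, edgeR). DESeq2 called ECI2 (adjusted p = 0.0006), PHYH (adjusted p = 0.00531) and ACADL (log2 fold change 0.96, adjusted p = 0.0265) as higher, where it called 0.512% of all genes higher. The members with gestation below the virgin sample and no overlap were FABP1 (-0.83, SE 0.44), ACSL3 (-0.43, SE 0.38) and DECR2 (-0.12, SE 0.19). The comparison of lactation with virgin below shares its virgin sample with this one, and both share samples with lactation against gestation.

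**Figure D4:**
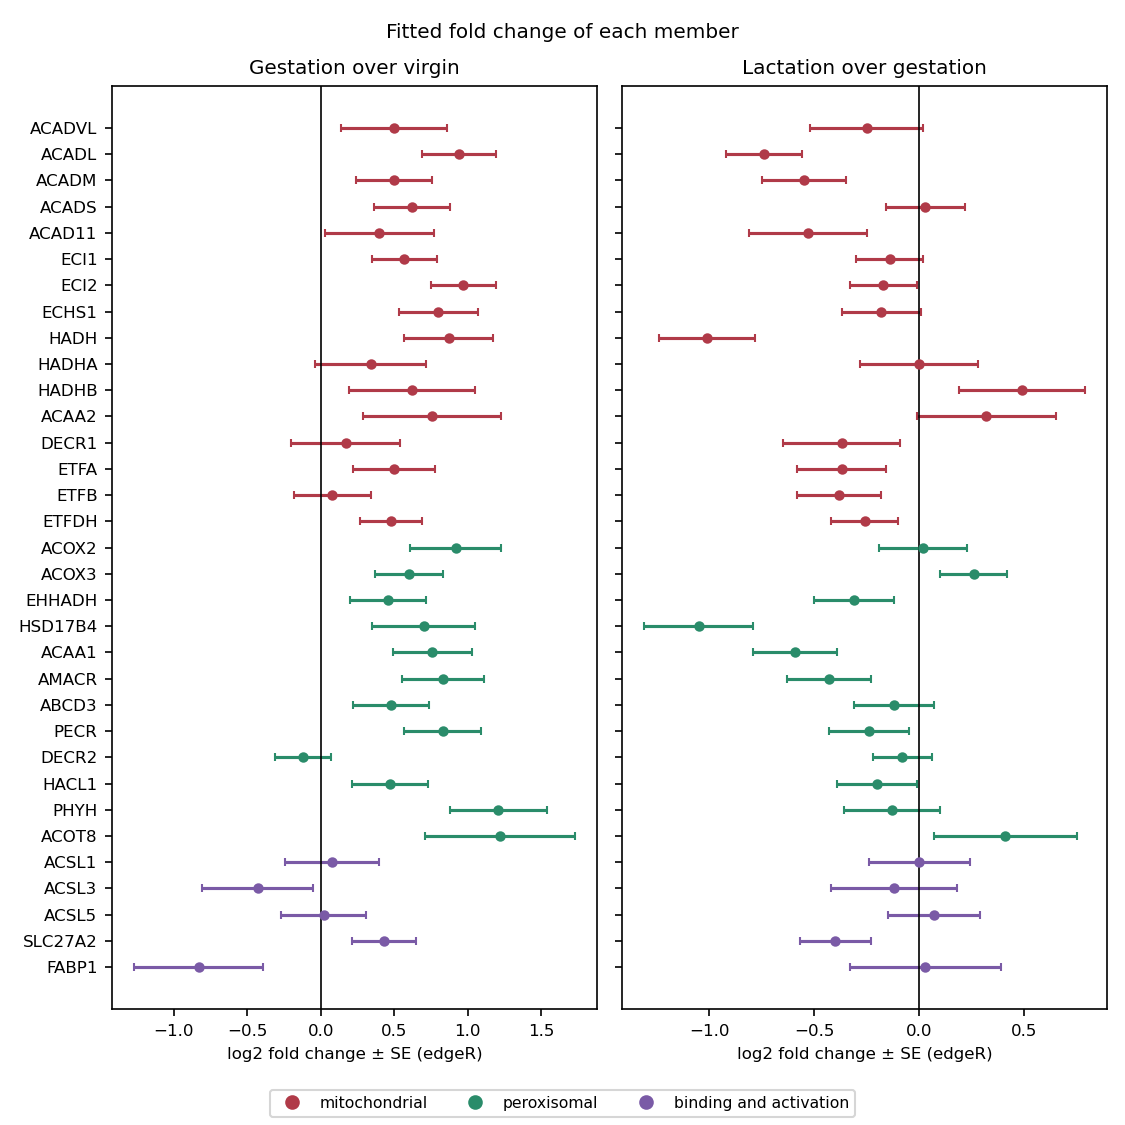
Log2 fold change with its standard error (edgeR, all 9 samples) of the 33 members with a mean of at least 5 CPM, for gestation over virgin on the left and lactation over gestation on the right, coloured by group of members. Points of the mitochondrial and peroxisomal members lie right of 0 on the left, save DECR2 at -0.12, and HSD17B4 (-1.05) and HADH (-1.01) lie farthest left on the right.

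In lactation against virgin the largest differences were those of ACOT8, HADHB, ACAA2 and PHYH, and no member passed the adjusted threshold. In edgeR 0 of 34 members were called, where 0% of all genes were, and DESeq2 called 0 members and 0.565% of all genes. At an unadjusted p under 0.05, 3 mitochondrial and 4 peroxisomal members were higher and 0 were lower, against 2.5% of all genes higher and 2.43% lower. The median log2 fold change was 0.23 for the mitochondrial and 0.38 for the peroxisomal members and 0.05 for all genes. ACOT8 averaged 15.2 ± 5.66 CPM in lactation against 4.94 CPM in the virgin sample, which gave 1.62 on the log2 scale (SE 0.56, adjusted p = 0.965, edgeR). HADHB had 202 ± 20.6 CPM in lactation against 93.6 CPM in the virgin sample (1.11, SE 0.48), and ACAA2 had 1230 ± 385 CPM in lactation against 583 CPM in the virgin sample (1.08, SE 0.52). Both lactation stages were below the virgin level for HADH, ETFB, ACAD11, HSD17B4, DECR2, FABP1 and ACSL3. They were 3 mitochondrial, 2 peroxisomal and 2 binding and activation members, against 6560 of all 20263 genes. Both stages were above the virgin level for 10 mitochondrial, 9 peroxisomal and 0 binding and activation members, against 6192 of all genes. FABP1 had the lowest log2 fold change of the members (-0.80). HSD17B4 had -0.35 (SE 0.36) and HADH -0.14 (SE 0.32).

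Over gestation, ACADVL, HADHA and HADHB had the largest positive slopes among the mitochondrial members and FABP1 and ACSL3 the largest negative ones of all members above 5 CPM, and none passed the test. In the edgeR trend over the 6 stages 0 of 34 members were called, where 0.0336% of all 17848 genes were. At an unadjusted p under 0.05, 4 mitochondrial, 1 peroxisomal and 1 binding or activation member had positive slopes and 2 mitochondrial and 3 binding or activation members negative ones, against 3.2% of all genes with positive and 3.41% with negative slopes. Slopes were positive for 10 of 16 mitochondrial (median 0.03), 4 of 12 peroxisomal and 2 of 6 binding and activation members, against 51.1% of all genes. ACADVL had a log2 slope per 100 days of 0.94 (SE 0.25, adjusted p = 0.404, edgeR), HADHA of 1.00 (SE 0.26, adjusted p = 0.389) and HADHB of 1.01 (SE 0.31, adjusted p = 0.521). Without days 140 to 150 these slopes were 0.63, 0.73 and 0.53. The slope of ACAA2 rested on that stage, at 0.90 (SE 0.35) with it and 0.06 without it.

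FABP1 had a slope of -1.33 per 100 days (SE 0.36, adjusted p = 0.404, edgeR), ACSL3 of -1.26 (SE 0.26, adjusted p = 0.237) and ACSL5 of -0.72 (SE 0.25, adjusted p = 0.62), and without days 140 to 150 they had -0.80, -0.94 and -0.64. DESeq2 called the slopes of FABP1 (adjusted p = 0.00608) and ACSL3 (adjusted p = 0.00416), where it called 0.968% of all genes with negative slopes. Other slopes also moved with the last stage. Among them HADH had -0.53 with it and 0.16 without it, and HSD17B4 had -0.72 with it and -0.11 without it. Spearman's rho with days was at least 0.8 for 3 mitochondrial members (ACADVL, HADHA and HADHB), for ACOX2 and for ACSL1, against 4.03% of all genes, and at most -0.8 for ACADS, FABP1, ACSL3 and ACSL5, against 3.7% of all genes.

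Across birth there was 1 sample on each side, so values are given without a test. On day 7 of lactation 27 of 33 members were lower than at days 140 to 150 of gestation, with a median ratio of 0.816 against 0.977 for the 8282 genes of at least 5 CPM. At least 1.5-fold lower were 7 members, against 11.9% of those genes, and at least 1.5-fold higher were 2, FABP1 and ACSL3, against 9.77% of them. ACADVL was at 213 CPM on day 7 against 398 CPM at days 140 to 150 (ratio 0.534, 95% counting interval 0.527 to 0.542), and ACAA2 at 958 CPM against 1665 CPM (ratio 0.576). FABP1 was at 3953 CPM on day 7 against 2292 CPM at days 140 to 150 (ratio 1.72), and DECR1 was level, at 393 CPM on day 7 and 396 CPM at days 140 to 150. On day 15 of lactation 3 members were at least 1.5-fold above day 7 (ACOT8, ACAA2 and DECR1), against 16.1% of genes, and 0 were at least 1.5-fold below it, against 8.75%. At gestation days 40 to 50, 14 members were at least 1.5-fold above the virgin sample, against 13.2% of genes, and 0 were at least 1.5-fold below it, against 12.4%.

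The other genes of the pathway were followed in lists. The carnitine shuttle carries long acyl chains into mitochondria, and its 11 members had a median log2 fold change of 0.52 in gestation over virgin, with 11 of 11 positive and 0 called in edgeR. Of all genes 54.8% were positive in that comparison. Over gestation 10 of 11 slopes were positive (median 0.59), against 51.1% of all genes. The 1 slope called, where 0.0336% of all genes were, was that of the carnitine transporter SLC22A5 (3.90 per 100 days, SE 0.36, adjusted p = 0.0268, edgeR). SLC22A5 had 3.55 CPM in the virgin sample, 3.26, 4.29, 4.31, 7.62, 15.2 and 46.6 CPM over gestation and 5.21 and 13.5 CPM in lactation. Its slope without days 140 to 150 was 3.24 (SE 0.56, adjusted p = 0.371, edgeR), and the call was kept only when days 70 to 80 were the stage left out. CROT, which makes carnitine esters of medium chains leaving the peroxisome, had 152 CPM in the virgin sample, 189, 257, 207, 281, 292 and 501 CPM over gestation and 219 CPM in each lactation stage. Like ACADVL and the trifunctional protein it peaked at days 140 to 150, though its slope of 1.25 (SE 0.27, adjusted p = 0.266, edgeR) was not called. ALDH9A1, of carnitine synthesis, was at 364 ± 10.9 CPM in lactation, 477 ± 36.3 CPM in gestation and 310 CPM in the virgin sample.

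Ketone body genes take up the acetyl-CoA that leaves the cycle. ACAT1, the thiolase at the head of the ketone body path, averaged 343 ± 88 CPM in lactation, 467 ± 37.9 CPM in gestation and 301 CPM in the virgin sample. Of the 9 listed ketone body genes 0 were called in edgeR in lactation over gestation, where 0.0592% of all genes were.

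In other peroxisomal enzymes the catalase gene CAT, which removes the hydrogen peroxide that the oxidases make, had 4110 ± 1040 CPM in lactation, 7065 ± 1014 CPM in gestation and 4004 CPM in the virgin sample, and PRDX5, a peroxidase, had 1004 ± 241 CPM in lactation, 1032 ± 264 CPM in gestation and 564 CPM in the virgin sample. Of the 25 genes of that list 19 were positive in gestation over virgin (median 0.32) and 19 negative in lactation over gestation (median -0.17). Of all genes, 54.8% were positive in gestation over virgin (median 0.06) and 48.9% in lactation over gestation (median -0.01). The 16 peroxins, which build the organelle, had a median of 0.19 in gestation over virgin and 0.02 in lactation over gestation. PEX11G had 63.7 ± 2.54 CPM in lactation, 61.3 ± 9.92 CPM in gestation and 52.3 CPM in the virgin sample. PEX11A, which promotes division of peroxisomes, reached 109 CPM at days 140 to 150 and lay between 26.1 and 63.3 CPM in the other stages.

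In the citric acid cycle list, 13 of 18 genes were positive in gestation over virgin (median 0.12), against 54.8% of all genes. In lactation over gestation 11 of 18 were negative and 7 positive (median -0.10), where 48.9% of all genes were positive. SUCLG2, a subunit of succinyl-CoA ligase, had 307 ± 8.22 CPM in lactation, 460 ± 46.5 CPM in gestation and 355 CPM in the virgin sample, and SUCLG1, its other subunit, had 280 ± 51.5 CPM in lactation, 296 ± 42.4 CPM in gestation and 236 CPM in the virgin sample. The 18 other mitochondrial acyl-CoA enzymes had medians of 0.38 in gestation over virgin and -0.30 in lactation over gestation. HSD17B10, a dehydrogenase of branched short chains, had 1880 ± 686 CPM in lactation, 2244 ± 295 CPM in gestation and 2329 CPM in the virgin sample. ACSM1, a synthetase of medium chains, had 386 ± 25.9 CPM in lactation, 641 ± 65.5 CPM in gestation and 566 CPM in the virgin sample. In edgeR 0 genes of these lists were called in these contrasts.

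Within a stage, cells differed less in the mitochondrial than in the peroxisomal sum. After each cell was thinned to 155164 reads, which kept 3063 of 3404 cells, the 90th percentile of the mitochondrial sum was 1.42 to 1.79 times the 10th percentile over the 9 stages, against 1.72 to 2.54 times for the peroxisomal sum. The ratios were nearest at days 100 to 120, at 1.79 and 1.83. PHYH alone was 35.8% to 49.7% of the peroxisomal sum by stage, and its part in the wider spread was not tested. CPM of single cells is taken over the thinned reads without TMM scaling, so it is not on the scale of the stage sums. The median cell had 4060 CPM of mitochondrial members in the virgin sample and between 5137 and 6058 CPM in the gestation stages. On days 7 and 15 of lactation it had 5014 and 6058 CPM. For the peroxisomal members the median cell had 4660 CPM in the virgin sample, between 6886 and 8842 CPM in the gestation stages and 6993 and 7276 CPM in lactation. The cells of the phases overlapped, since the 10th percentile of the peroxisomal sum was 4837 and 5055 CPM in the lactation stages and 4720 to 6770 CPM in the gestation stages, against a 90th percentile of 6045 CPM in the virgin sample.

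**Figure D5:**
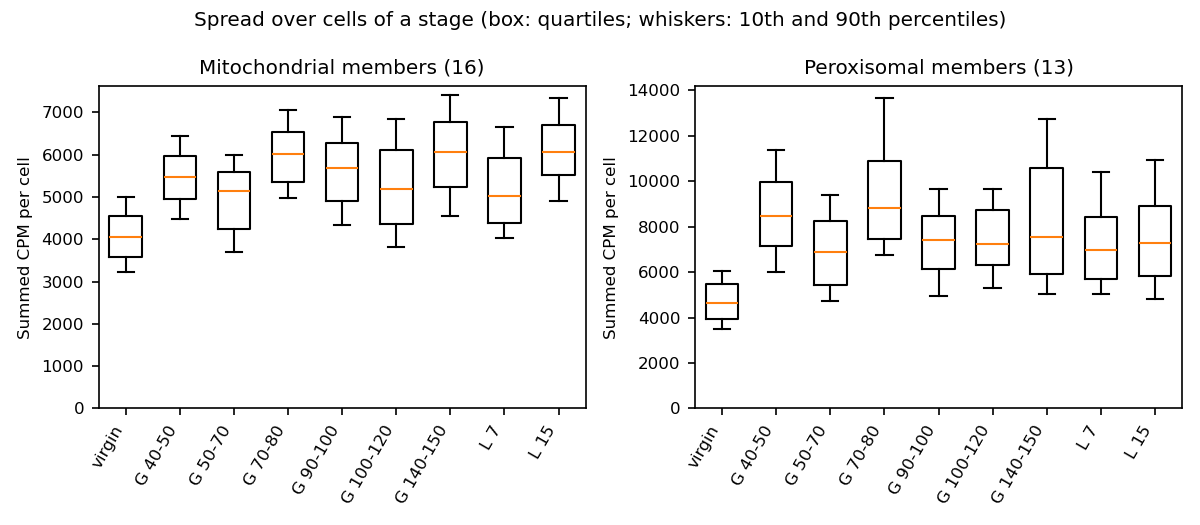
Summed CPM per cell of the mitochondrial (left) and peroxisomal (right) members by stage, after thinning each cell to 155164 reads (line for the median, box for the quartiles, whiskers for the 10th and 90th percentiles over cells). Per-cell CPM is taken over the thinned reads, without TMM scaling. The virgin boxes are lowest, with medians of 4060 and 4660 CPM. The peroxisomal spread is widest at gestation days 140-150, where the 90th percentile is 2.54 times the 10th.

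The widest peroxisomal spread was at days 140 to 150 of gestation. There the 10th and 90th percentiles over cells were 103 and 857 CPM for HSD17B4, a ratio of 8.31 against 2.06 to 3.69 in the other stages. AMACR had 224 and 1173 CPM at these percentiles, a ratio of 5.23 against 2.24 to 3.02 in the other stages. PHYH, with 49.7% of the peroxisomal sum at that stage, had 1914 and 8043 CPM, a ratio of 4.2 against 2.39 to 3.69 elsewhere. FABP1, of the binding and activation group, had a ratio of 10.1 at days 140 to 150 against 3.37 to 6.38 in the other stages. The low stage levels of HSD17B4 and FABP1 at days 140 to 150 went with a wide spread over cells, but this did not hold in general. HADH, also low there, had a ratio of 5.5, against 3.43 to 8.5 in the other stages. PHYH was widest at that stage without being low (4060 CPM).

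Cells with a higher mitochondrial sum tended to have a higher peroxisomal sum, of which PHYH is the largest part. Spearman's rho across the cells of a stage, given as a description of cells that share a sample, ran from 0.51 in the virgin sample to 0.75 at days 70 to 80. Between the mitochondrial members and the citric acid cycle genes it ran from 0.05 to 0.54. With the periportal markers, genes of the lobule's inflow side, it ran from -0.27 to 0.45. With the pericentral markers, genes of its outflow side, it ran from -0.24 to 0.42, and both lists gave both signs. These marker sums were mostly ALB (81.9% to 91.5% of the periportal sum by stage) and CYP2E1 (93.9% to 97.9% of the pericentral sum). Among single members PHYH went most closely with the others, with a median rho over stages of 0.62 with the mitochondrial and 0.60 with the other peroxisomal members, followed by EHHADH (0.41 and 0.52), AMACR (0.36 and 0.46) and ECHS1 (0.33 and 0.49). Other peroxisomal members went less closely, such as PECR (0.24 and 0.23), HSD17B4 (0.15 and 0.11) and HACL1 (0.06 and 0.02). HSD17B4 is not a low gene, at 366 to 966 CPM over the stages. Weak values of low genes such as ACOX3, with a read in 55.6% to 85.4% of thinned cells, and ACOT8, with a read in 25.9% to 65.5%, are limited by counting.

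Some levels carry an added doubt. By the RefSeq gene table, 7 members overlap another gene other than a tRNA, and the sources used here do not say whether the authors' counting used strand. For ACAD11 (with ACKR4), ACOX3 (with LOC114115356), HACL1 (with BTD) and ACOT8 (with SNX21) the partner is a protein-coding gene, and for ACADM, ETFB and PHYH it is a long noncoding RNA. Reads of such pairs could have been split or shared, which was not tested.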

How the data were processed

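Counts of reads per gene and cell were used as the authors deposited them. The tools named in the submitters' processing notes are featureCounts 2.0.1, HISAT2 2.1.0 and Trimmomatic 0.39, while the genome build, the counting strand and any collapsing of molecular identifiers are not given in the sources used here. Rows without a gene name, 24 with 0.474% of reads, were left out. Counts were summed over the cells of a stage (114865665 to 272944124 reads). All genes were fitted in edgeR 4.0.16 under R 4.3.3 (filterByExpr, TMM, glmQLFit and glmQLFTest, Benjamini-Hochberg, threshold 0.05) with a term per phase over the 9 samples, or on the midpoint of days over the 6 gestation stages. CPM is the summed count over the TMM-scaled total, and CPM of single cells is the count over the cell's thinned reads. CPM per kb uses the gene length in the table, and the sources used here do not define that length. Alternatives were library size as the only scaling, no filter on low counts, DESeq2 1.42.0, equal weight per cell (limma 3.58.1, log2 of mean CPM + 1) and leaving out each stage in turn. Cells were thinned to 155164 reads, the 10th percentile, leaving out 341; doublets were not called, since cells were picked singly, and no cell was otherwise removed. Intervals on counts are 95% exact Poisson intervals. The SE of an edgeR value was derived as the size of its log2 value over the square root of the quasi-likelihood F statistic.

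The members and the other gene lists (carnitine shuttle, ketone bodies, the PPARA axis, peroxins, other peroxisomal and mitochondrial enzymes, the citric acid cycle, fatty acid synthesis and cell type markers) were chosen with earlier results of these data known. Members given in every stage are the 4 per group with the highest mean CPM and, per comparison and direction, the 3 with the largest change among those of at least 5 CPM whose groups did not overlap (over gestation days, those with Spearman's rho at or beyond 0.8 or -0.8). The other lists are shown by called genes and the 2 with the highest mean CPM, and any further gene was chosen after its values were seen. A gene that this rule names in the ketone body list is not reported here. Fits were tested on simulated data with true changes in genes above 5 CPM. Lactation against gestation found 16.4% of changes of 1 on the log2 scale and 89.6% of those of 2. The trend found 0% of slopes of 1 per 100 days and 50.7% of slopes of 2. At a change of 1 the comparisons with the virgin sample found fewer than lactation against gestation. A member that was not called is therefore not shown to be unchanged. RefSeq's gene table for ARS-UI_Ramb_v3.0 held all 28837 symbols and served for names and neighbours only. The table of normalized values held only NA and was not used. Summing, tables and figures used Python 3.11.15 with matplotlib 3.10.9, SciPy 1.17.1, pandas 2.3.3 and numpy 2.4.6.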

Additional observations from a re-analysis of the deposited data

Results flagged for a closer look

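In each phase of 4 or more samples, here gestation, the highest and lowest sample of each of 36 levels (33 members and the 3 sums) was compared with its neighbours, and 4 members had a sample far from the other 5. Chance alone marks about 1 in 20 such groups. The share of all genes that the same comparison would mark is not given here, so the count is not shown to be particular to the members. For all 4 members the far sample was that of days 140 to 150. HADH was low there at 121 CPM, with the other gestation stages between 185 and 209 CPM. HSD17B4 was low at 494 CPM, with the others between 806 and 966 CPM. ACAA2 was high at 1665 CPM, with the others between 701 and 1016 CPM, and HACL1 was high at 184 CPM, with the lowest of the others at 127 CPM. The stage is 1 sample, and whether these levels belong to the end of gestation or to that sample cannot be told apart here.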

How the results depend on the processing

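The calls over all genes moved with the tool. Between lactation and gestation edgeR called 12 genes (6 higher, 6 lower). It called 22 scaled by library size alone (16 higher, 6 lower), 21 without a filter on low counts, and 1 to 45 with a stage left out, 45 without day 7 of lactation. DESeq2 called 523 (168 higher, 355 lower) and limma on cells of equal weight 6 (6 higher). Between gestation and virgin edgeR called 1, and 5 without a filter, while DESeq2 called 114, limma 57, and edgeR 1 or 2 after leaving out a stage. Between lactation and virgin edgeR called 0 (507 higher and 493 lower at an unadjusted p under 0.05), DESeq2 96 and limma 33, and edgeR 0 or 1 after leaving out a stage. For the trend edgeR called 6, and 17 without a filter, while DESeq2 called 303 and limma 16. With a gestation stage left out the trend had 0 to 9 calls, 0 without days 140 to 150. Among the members 8 values passed the threshold in DESeq2 and 0 in the other alternatives.

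For lactation over gestation, the mitochondrial median of -0.25 was -0.07 scaled by library size, -0.04 by equal weight, and -0.32 to -0.17 after leaving out a stage. The peroxisomal one of -0.16 was 0.03 and 0.01 under these scalings. The binding and activation one of 0.02 was 0.21 and 0.17, and -0.23 to 0.09 after leaving out a stage (-0.23 without day 15). The median of all genes moved as well, from -0.01 to 0.18 scaled by library size and 0.07 by equal weight. For gestation over virgin, the mitochondrial median of 0.54 was 0.40 and 0.39, and the binding and activation one of 0.05 was -0.09 scaled by library size. There the median of all genes went from 0.06 to -0.08 scaled by library size and -0.05 by equal weight. For lactation over virgin, the mitochondrial median of 0.23 was 0.21 to 0.31 after leaving out a stage, and the binding and activation one of 0.06 was 0.16 by equal weight and -0.18 to 0.06 after leaving out a stage (-0.18 without day 7, -0.09 without day 15). For the trend, the mitochondrial median of 0.03 was -0.12 to 0.07 (-0.12 without days 40 to 50), and the binding and activation one of -0.56 was -0.34 by equal weight and -0.77 to -0.28 after leaving out a stage (-0.28 without days 140 to 150). The cause was not tested.

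The log2 ratio of the mitochondrial sum of lactation over gestation (-0.17) was 0.02 scaled by library size, 0.03 by equal weight and -0.28 to -0.06 after leaving out a stage. That of gestation over virgin (0.59) was 0.45 and 0.44 under these scalings, and that of lactation over virgin (0.42) was 0.31 to 0.53 after leaving out a stage. The peroxisomal ratio of lactation over gestation (-0.28) was -0.09 scaled by library size, -0.11 by equal weight and -0.41 without PHYH. That of gestation over virgin (0.89) was 0.75 scaled by library size and 0.67 without PHYH, and that of lactation over virgin (0.61) was 0.26 without PHYH. Without FABP1 the binding and activation ratio was 0.19 for gestation over virgin and 0.05 for lactation over virgin, against -0.67 for both. The count of 17 members lowest in the virgin sample was 16 to 19, and that of 9 mitochondrial and peroxisomal members lower in lactation than in gestation without overlap was 4 scaled by library size and 4 by equal weight, under alternatives that were chosen after seeing the data.

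No paired analysis was possible because the labels give no replicate numbers, and the numbers used only follow accession order. The virgin phase is 1 sample and lactation 2, the labels name no animals, and each stage is 1 sample, so stage and sample cannot be told apart. Counts limit ABCD2, ACSL4 and, within cells, ACOX3 and ACOT8.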

Other observations

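Among genes of the PPARA axis, which switches on fatty acid oxidation in fasting, PDK4, the kinase that holds back use of pyruvate, had 193 CPM in the virgin sample, 40.4, 29.6, 279, 158, 399 and 444 CPM over gestation and 29.1 and 30.9 CPM in lactation. TXNIP, a second gene of the list, had 163 ± 83.4 CPM in lactation, 192 ± 105 CPM in gestation and 133 CPM in the virgin sample. Of the 13 listed genes 10 had positive slopes over gestation (median 0.52 per 100 days), against 51.1% of all genes, and 0 passed the adjusted threshold in edgeR, while 6 had an unadjusted p under 0.05 and a positive slope, against 3.2% of all genes.

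The fatty acid synthesis list had 11 of 12 slopes negative over gestation (median -1.98), where 51.1% of all genes had positive slopes. The 1 gene called, where 0.0336% of all genes were, was ACSS2, which makes acetyl-CoA from acetate (-2.72, SE 0.27, adjusted p = 0.0307, edgeR). ACSS2 had 85 CPM in the virgin sample, 91.1, 77.6, 67.5, 34.2, 26.8 and 15.8 CPM over gestation and 41.6 and 79.4 CPM in lactation. Its adjusted p was 0.0274 to 0.325 with a gestation stage left out, the highest without days 140 to 150, and 0.0614 scaled by library size alone. THRSP, a regulator of lipogenesis, had 442 CPM in the virgin sample, 458, 468, 158, 133, 74.8 and 5.37 CPM over gestation and 75.4 and 363 CPM in lactation. ELOVL5, an elongase of polyunsaturated chains, had 209 ± 43.6 CPM in lactation, 143 ± 19.9 CPM in gestation and 155 CPM in the virgin sample.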
